A study of Mus musculus with 3 samples.

Results

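The neural plate border transcription factors described here were Tfap2a, Tfap2b, Dlx3, Dlx5, Dlx6, Msx1, Msx2, Pax3 and Pax7. They were chosen by gene symbol, and these 9 genes were measured among 31054 features. The rule uses no measured value, but the genes were chosen with earlier results of these data known. Single-cell RNA-seq was performed on 3 wild-type embryos of the strain C57BL/6 x 129 SvEv at embryonic day 8, all male by the authors' genotyping, with 1 library per embryo and no other genotype or treatment. The stage field of the labels gives 0 to 2 somites and the extraction protocol 0 to 1, and that protocol states that extraembryonic tissue was taken off before whole embryos were dissociated. After quality control 5761, 7738 and 7681 cells remained for embryos 1, 2 and 3, which is 21180 in all, with a median of 27545, 14411 and 16171 unique molecular identifiers (UMIs, 1 for each captured transcript) per cell. Between 18 and 22 cell barcodes were shared by any pair of libraries.

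The neural plate border is the strip of ectoderm between the neural plate, which folds into the brain and spinal cord, and the surface ectoderm, which forms epidermis. Signals of the BMP, WNT and FGF families position it, and its cells later give rise to neural crest and, in the head, to the sensory placodes. AP-2 factors (Tfap2), distal-less (Dlx) and muscle-segment (Msx) homeodomain proteins and the paired-box proteins Pax3 and Pax7 are its best known transcription factors, and several of them also act in mesoderm.

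Cells were placed in classes by marker UMIs per 10000 UMIs of the cell, and no border factor was among those markers. Surface ectoderm cells held at least 1 Wnt6 and 1 Epcam UMI per 10000 and under 0.5 of Sox2. Neural plate cells held at least 1 Sox2 UMI per 10000, under 0.5 of Wnt6 and few UMIs of caudal progenitor or paraxial mesoderm markers. Dual cells held at least 1 UMI per 10000 of both Wnt6 and Sox2. These gates gave 385 surface ectoderm cells (131, 118 and 136 in embryos 1, 2 and 3), 2260 neural plate cells (744, 720 and 796) and 153 dual cells (41, 50 and 62). The classes are ranges on continuous scales: of 874 cells at or above the Wnt6 minimum, 443 lay under 2 times that minimum, and for Sox2 this was 2358 of 4103 cells. Genes outside the gates followed the labels, since Grhl2, an epithelial regulator, stood at 29.0 CPM (UMIs of the gene per 1000000 UMIs of the class) in surface ectoderm and 5.21 CPM in neural plate, and the neural factor Sox3 at 10.7 and 60.8 CPM.

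The surface ectoderm gate held cells of more than one kind. In 175 of its 385 cells the summed mesenchyme list (Ahnak, Hand1, Acta2, Tagln, Bmp4 and Pmp22) reached 8 UMIs per 10000, with a median of 21.5 against 2.45 in the other 210 cells. These 175 cells had a mean of 450 CPM of Hand1, itself on the list, and 1489 CPM of Krt8, against 63.0 and 385 CPM in the others. The other 210 cells carried caudal genes (Cdx1 at 236 CPM, Otx2 at 9.62 CPM). A further class of 86 cells (32, 35 and 19) was gated on Epcam and on rostral markers with little Sox2 or Wnt6, with 210 CPM of Otx2, 107 CPM of Six3 and 2.04 CPM of Wnt6, and is called rostral Epcam cells here. All gate values were set after the cells had been seen. This class and the mesenchyme split were added after the data had been seen. The class and the differences between the portions are described without a test, and the low-mesenchyme cells also stood for surface ectoderm in an alternative to its tests. Erythroid cells, which should lack all of the factors, were present in embryos 2 and 3 (762 and 202 cells) and gave the background. The extraembryonic endoderm class held 2212 cells.

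RefSeq start-site sequences (GRCm38.p6) were matched for 5 of the 9 genes, and the 250 bases before the start are shown for Tfap2a and Msx1, the AP-2 and Msx genes with the most UMIs. Capitals mark matches on either strand to the homeodomain core TAATTA or to CCAAT. The Tfap2a window lies at chr13:40734921-40735170 on the minus strand, before the first of 2 RefSeq starts and inside the span of Tfap2a in the annotation, and the Msx1 window at chr5:37824586-37824835 on the minus strand.
Tfap2a: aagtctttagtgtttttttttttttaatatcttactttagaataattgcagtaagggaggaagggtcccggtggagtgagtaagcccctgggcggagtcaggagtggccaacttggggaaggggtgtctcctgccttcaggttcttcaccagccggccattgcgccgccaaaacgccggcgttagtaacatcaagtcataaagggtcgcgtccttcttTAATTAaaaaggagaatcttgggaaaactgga
Msx1: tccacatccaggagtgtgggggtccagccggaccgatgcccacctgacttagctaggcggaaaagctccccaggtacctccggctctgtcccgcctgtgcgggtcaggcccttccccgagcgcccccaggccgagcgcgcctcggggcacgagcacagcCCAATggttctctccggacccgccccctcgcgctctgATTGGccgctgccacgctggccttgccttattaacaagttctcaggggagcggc

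The Tfap2a window held 1 TAATTA match and no CCAAT match, and the Msx1 window held 2 CCAAT matches and no TAATTA match. The Msx2 window held 1 of each. Among 32851 windows of the same length, 4.84% held TAATTA and 33.8% held CCAAT. No window of these genes matched the AP-2 letters GCCNNNGGC, the SMAD-type letters GGCGCC or TATAAA, which 13.7%, 9.59% and 12.4% of all windows held. A match of letters is a description of the window and not a binding site.

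The genes lie apart from each other except for one pair (GRCm38, GENCODE M21). Dlx5 (chr6:6877805-6882085, minus strand) and Dlx6 (chr6:6863334-6868568, plus strand) are neighbours separated by 9.24 kb. Msx1 lies at chr5:37820485-37824583, Msx2 at chr13:53466884-53473074 and Tfap2a at chr13:40715302-40738376. Tfap2b lies at chr1:19208914-19238576 and Pax3 at chr1:78101267-78197134. Dlx3 lies at chr11:95120119-95125296 and Pax7 at chr4:139737062-139833528. Dlx6 overlaps the antisense RNA Dlx6os1, which had 130 UMIs in kept cells, and Tfap2a overlaps 3 antisense RNAs with 60, 73 and 0 UMIs. The use of strand in the counting is not given in the sources used here, so the values of the overlapping genes are uncertain to that extent, although the partners were counted as features of their own.

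Abundance differed widely between the factors. Msx1 gave 52512 UMIs in kept cells and was detected in 55.1% of them, and Msx2 gave 10922 UMIs (26.7% of cells). Pax3, Tfap2a and Dlx5 gave 3464, 3306 and 3198 UMIs. Dlx6, Dlx3 and Pax7 gave 1277, 727 and 444 UMIs, and Tfap2b only 40. Cells that no gate took, called unassigned, made up 24.7% of kept cells and are left out of the class orders and figures. They held 35.6% of Tfap2a, 36.3% of Dlx5, 37.0% of Dlx6, 33.1% of Dlx3, 36.9% of Pax7 and 45% of Tfap2b UMIs. For Msx1, Msx2 and Pax3 this was 26.8%, 26.8% and 29.3%. Over all kept cells of embryos 1, 2 and 3, Msx1 was at 96.2, 112 and 117 CPM and Tfap2a at 7.95, 5.75 and 6.24 CPM. UMIs count captured transcripts, and how fully the transcripts of each gene were captured was not measured, so these values do not rank the genes by expression. From here on values in 3 numbers are those of embryos 1, 2 and 3.

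**Figure D1:**
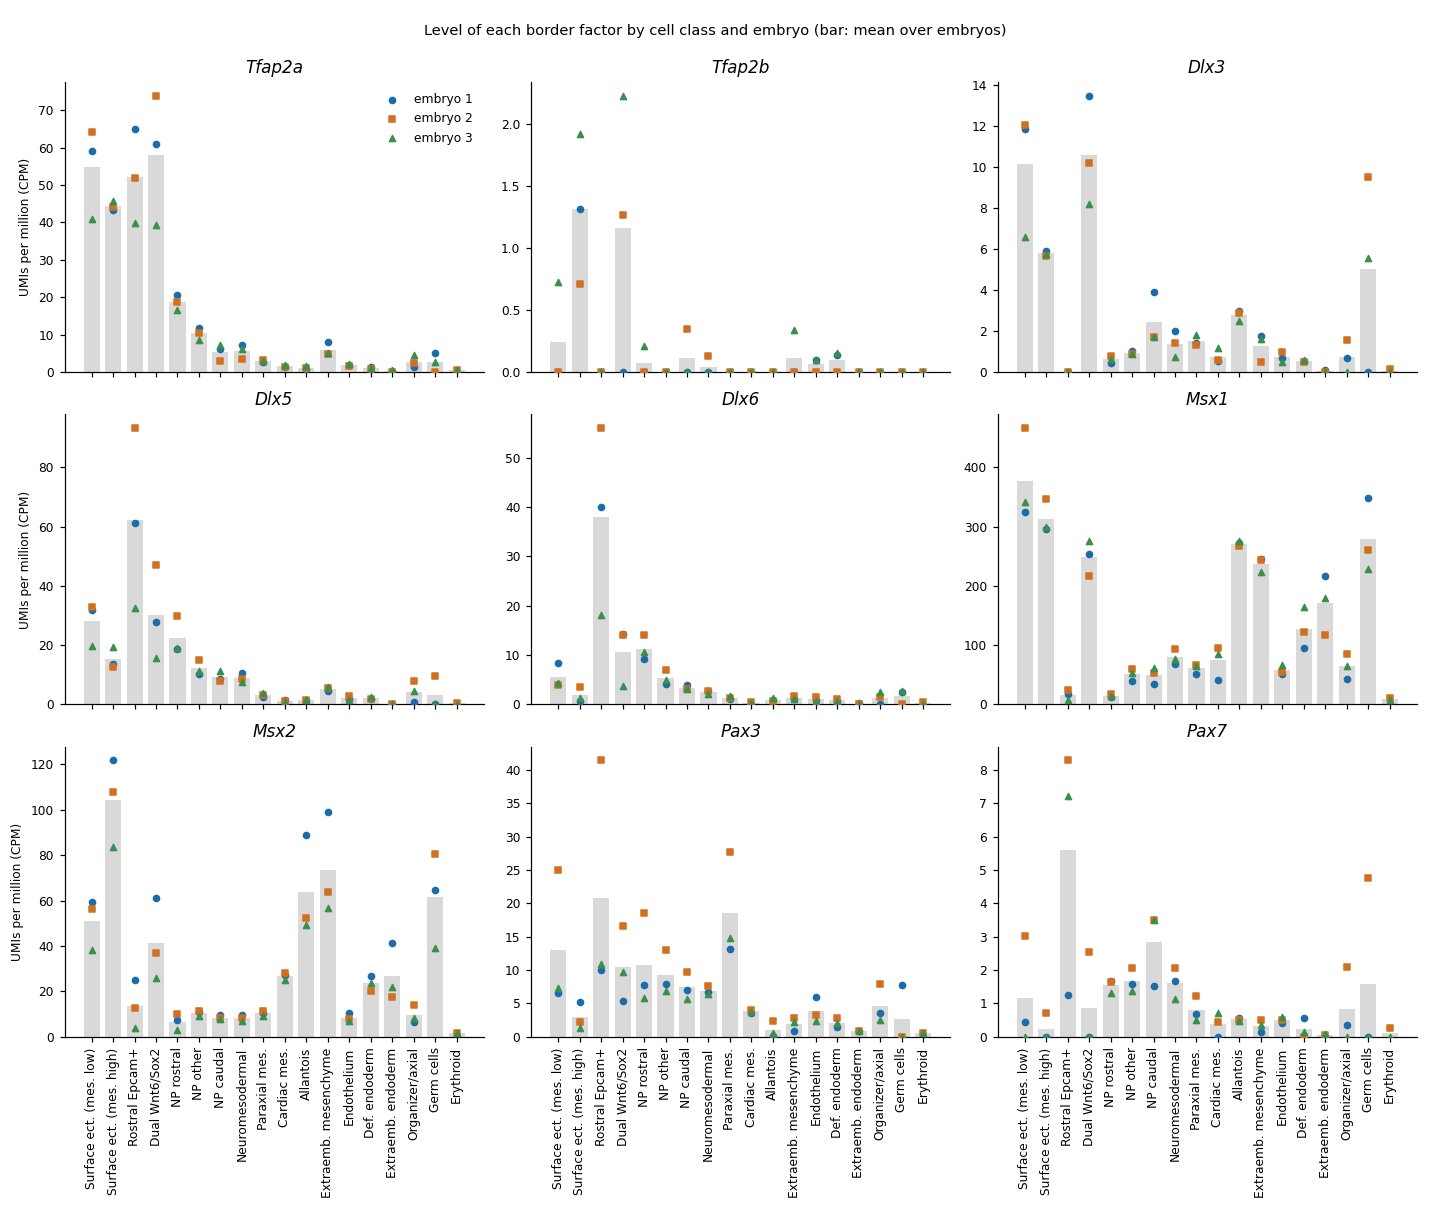
Level of each border factor (CPM, y axis, a separate scale per panel) in 18 cell classes (x axis), with a symbol per embryo and a bar for the mean over embryos; embryo 1 had no erythroid cells. Msx1 and Msx2 spread over surface ectoderm, allantois, mesenchyme, extraembryonic endoderm and germ cells. Tfap2a was highest in dual cells, rostral Epcam cells and the portions of the surface ectoderm gate (means of 44.4 to 58.0 CPM in these 4 classes). By the mean, Pax3 was highest in rostral Epcam cells and paraxial mesoderm (20.8 and 18.6 CPM), with overlapping ranges. In embryos 1 and 3 the rostral Epcam cells (10.0 and 10.8 CPM) lay below paraxial mesoderm (13.2 and 14.8 CPM).

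The AP-2 factor Tfap2a was highest in the surface ectoderm gate, dual cells and rostral Epcam cells. AP-2alpha is needed for epidermal and neural crest development. Its level in surface ectoderm was 52.9, 52.4 and 43.5 CPM, in dual cells 60.9, 73.7 and 39.4 CPM, and in rostral Epcam cells 65.0, 51.8 and 39.7 CPM. The highest 4 classes overlapped one another, and all lay above the rostral neural plate (20.6, 18.8 and 16.6 CPM), which in turn lay above the remaining neural plate. Erythroid cells held 0.493 and 0.574 CPM, and extraembryonic endoderm, the lowest class, a mean of 0.355 CPM.

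Tfap2b, which encodes the related AP-2beta, was near the limit of detection. Surface ectoderm held 2, 1 and 4 of its UMIs and dual cells 0, 1 and 3, together 11 of 40 UMIs, and the low and high mesenchyme portions of surface ectoderm held 1 and 6. Unassigned cells held 18 of the 40 UMIs. In paraxial mesoderm 0 UMIs were found in 2844 cells thinned to 5000 UMIs, where 3 counts would correspond to 0.105%. Tfap2b did not pass the filter on low counts in any of the 6 comparisons. Without that filter it was called higher than in neural plate (2 UMIs) in surface ectoderm (edgeR adjusted p = 0.00439) and in dual cells (adjusted p = 0.0264), and in none of the other 4 comparisons. The fitted fold changes of so few UMIs depend on the prior count and are not given.

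Dlx3, a homeodomain factor of epidermis and placenta, was highest in the Wnt6 classes. It stood at 9.47, 8.31 and 6.16 CPM in surface ectoderm and 13.4, 10.2 and 8.17 CPM in dual cells, against 1.36, 1.05 and 0.957 CPM in neural plate. The rostral Epcam cells held 0 UMIs of Dlx3 in each of the 3 embryos, while Tfap2a gave 88 UMIs there. In allantois Dlx3 was at 2.97, 2.89 and 2.503 CPM, above the erythroid cells (0.164 and 0 CPM).

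The neighbouring genes Dlx5 and Dlx6, which later pattern the facial primordia and the otic region, had their highest levels at the rostral end. In rostral Epcam cells Dlx5 stood at 61.3, 93.2 and 32.5 CPM and Dlx6 at 40.02, 55.9 and 18.1 CPM. The low-mesenchyme surface ectoderm held 32.0, 33.0 and 19.8 CPM of Dlx5 but only 8.32, 4.01 and 4.40 CPM of Dlx6. For Dlx5 these ranges overlapped, as the lowest rostral value (32.5 CPM) was below the highest surface ectoderm value, and for Dlx6 they did not overlap. Embryo 3, with 19 rostral Epcam cells, was the lowest for both genes in that class. Dlx6 in high-mesenchyme surface ectoderm was at 0.658, 3.55 and 1.28 CPM on 8 UMIs.

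The Msx genes, which are induced by BMP signals, had the broadest range. Msx1 stood at 313, 396 and 319 CPM in surface ectoderm, 272, 267 and 275 CPM in allantois, 246, 244 and 224 CPM in extraembryonic mesenchyme and 254, 216 and 276 CPM in dual cells. Primordial germ cells, with 68 cells in all, held a mean of 279 ± 61.8 CPM (SD, n = 3), which overlapped its neighbours in the order. In rostral Epcam cells Msx1 was at 17.5, 24.9 and 7.23 CPM and overlapped the rostral neural plate (11.8, 18.0 and 14.3 CPM), the level in erythroid cells of embryos 2 and 3 being 11.2 and 7.17 CPM. By contrast, low-mesenchyme surface ectoderm, whose Tfap2a level overlapped that of the rostral Epcam cells, had 324, 466 and 341 CPM.

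Msx2 differed from Msx1 between the portions of the surface ectoderm gate. Its highest mean level was in high-mesenchyme surface ectoderm, at 122, 108 and 83.5 CPM, above the low-mesenchyme cells at 59.1, 56.1 and 38.1 CPM in each embryo and without overlap. Msx1 was at 295, 347 and 299 CPM in the former and 324, 466 and 341 CPM in the latter, and these ranges overlapped. Extraembryonic mesenchyme (99.2, 63.7 and 56.9 CPM) and allantois (89.1, 52.5 and 49.1 CPM) followed for Msx2. The ranges of both overlapped that of high-mesenchyme surface ectoderm. Cardiac mesoderm had a mean of 26.7 ± 1.56 CPM of Msx2 (SD, n = 3), above paraxial mesoderm (10.3 ± 1.10 CPM) in all embryos.

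The paired-box genes, known for the dorsal neural tube, neural crest and somites, were not highest in Wnt6 cells. Pax3 was at 13.2, 27.7 and 14.8 CPM in paraxial mesoderm, 7.67, 13.8 and 6.42 CPM in neural plate and 6.05, 11.6 and 4.11 CPM in surface ectoderm. Embryo 2 was the highest embryo in each of these classes, and in rostral Epcam cells it held 41.4 CPM against 10.0 and 10.8 CPM. Paraxial mesoderm held 36.0% of all Pax3 UMIs while making up 13.4% of kept cells. Pax7 remained low throughout, at 1.53, 3.48 and 3.48 CPM in caudal neural plate, and its 7 UMIs in rostral Epcam cells (1.25, 8.28 and 7.23 CPM) overlapped that range. Surface ectoderm held 1, 4 and 0 UMIs of Pax7.

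**Figure D2:**
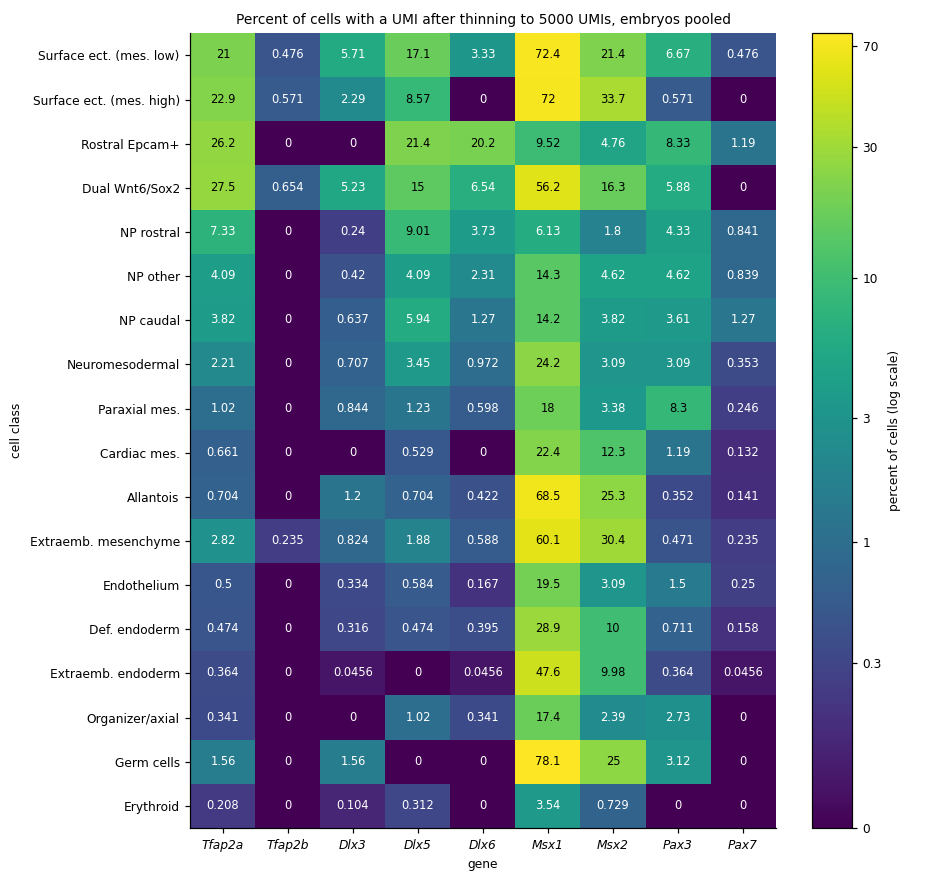
Percent of cells with at least 1 UMI of each factor (columns) by cell class (rows) after every cell was thinned to 5000 UMIs, embryos pooled, with colour on a log scale; a 0 is a count of 0 cells. Msx1 was found in 72.4% of low-mesenchyme surface ectoderm and 9.52% of rostral Epcam cells, and Dlx6 in 3.33% and 20.2% of them.

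Shares of positive cells were compared after each cell had been thinned to 5000 UMIs, since embryo 1 was sequenced more deeply, and intervals cover counting error only. In surface ectoderm 23.7%, 25.4% and 16.9% of cells held a Tfap2a UMI, and in neural plate 6.46%, 4.18% and 5.03%. Without thinning these shares were 72.5%, 55.1% and 45.6% and 23.3%, 13.9% and 17.1% and were highest in embryo 1, the deepest (median 24697, 15304.5 and 16714.5 UMIs per surface ectoderm cell). Erythroid cells held a Tfap2a UMI in 0.132% and 0.495% of thinned cells of embryos 2 and 3, at a median of 14951.5 and 16551 UMIs.

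Msx1 was found in 74.8%, 67.8% and 73.5% of thinned surface ectoderm cells and 8.75%, 12.4% and 12.6% of neural plate cells, with 3.69% and 2.97% in erythroid cells. Unthinned, 94.7%, 92.4% and 92.6% of surface ectoderm cells held Msx1. Dlx5 was found in 12.98%, 11.9% and 14.7% of surface ectoderm and 6.06%, 8.08% and 4.91% of neural plate cells, and Dlx3 in 5.34%, 2.54% and 4.41% and in 0.269%, 0.557% and 0.377%. In rostral Epcam cells the pooled share of Dlx6 was 20.2% (95% exact Clopper-Pearson interval 12.3 to 30.4), against 3.33% (1.35 to 6.75) in low-mesenchyme surface ectoderm. The share of Dlx3 in rostral Epcam cells was 0 of 84 thinned cells, which allows up to 3.57%, and low-mesenchyme surface ectoderm had 5.71% (2.99 to 9.77). The exact upper bound for the former is 4.30%. Unthinned, Dlx3 was found in 0 of 86 and 42 of 210 cells (20%, exact interval 14.8 to 26.1). These intervals pool the cells of all embryos and do not cover the spread between embryos. The differences in Dlx6 and Dlx3 were not tested.

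Next, surface ectoderm was compared with neural plate to ask which border factors separate the tissues on either side of the border. Axial position was not matched between them. Of the low-mesenchyme surface ectoderm cells, 65, 50 and 53 passed a caudal gate (Hox and Cdx genes) and 0 a rostral gate (Otx2, Six3 and Hesx1). The neural plate sums pooled 835 rostral, 472 caudal and 953 other cells. The part of axial position in the differences was not tested. UMIs were summed per embryo and class, 3 sums against 3, and tested with edgeR's quasi-likelihood method, with Benjamini-Hochberg adjustment over all genes tested and a call at an adjusted p under 0.05. Of 11905 genes tested, 29.7% were called in either direction, 17% as higher and 12.7% as lower in surface ectoderm. Of the 9 factors 8 were tested; 5 were higher, none was lower and 3 did not pass. The median log2 fold change of the 8 was 1.32, against -0.02 over all genes, and in the other comparisons the median over all genes lay between -0.02 and 0.0045.

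Msx2 differed by 3.13 ± 0.16 on the log2 scale (standard error; edgeR adjusted p = 6.81e-08), from 9.35, 10.1 and 7.15 CPM in neural plate to 84.2, 86.4 and 62.3 CPM. The high-mesenchyme cells held 467 of its 710 UMIs in surface ectoderm, and the low-mesenchyme cells alone stood at 59.1, 56.1 and 38.1 CPM. Over the alternatives the log2 value of Msx2 ranged from 2.52 to 3.86. Msx1 differed by 3.103 ± 0.18 (adjusted p = 1.61e-07), from 28.6, 46.7 and 44.5 CPM in neural plate. Dlx3 differed by 2.80 ± 0.28 (adjusted p = 1.34e-05) and Tfap2a by 2.04 ± 0.14 (adjusted p = 5.06e-07), the latter from 14.0, 11.3 and 10.5 CPM. All 4 were higher in 3 of 3 embryos with no overlap of the groups. Dlx5 was 0.59 ± 0.16 higher (adjusted p = 0.0171), at 24.7, 21.2 and 19.5 CPM against 13.05, 17.6 and 13.3 CPM, and this call was lost without embryo 1 (0.41, adjusted p = 0.182) and without embryo 3 (0.60, adjusted p = 0.0801).

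The partner gene Dlx6 went the other way in each embryo, at 5.26, 3.74 and 2.74 CPM in surface ectoderm against 5.98, 8.10 and 6.14 CPM, with no overlap, but did not pass (log2 -0.74 ± 0.27, edgeR adjusted p = 0.0585). With the embryo as a replicate block Dlx6 passed (adjusted p = 0.0237), and with low-mesenchyme cells alone its value was -0.15 (adjusted p = 0.856). Pax7 did not pass (log2 -1.70 ± 0.67, edgeR adjusted p = 0.0778), on 5 UMIs in surface ectoderm, and passed with the block (adjusted p = 0.0218). Pax3 did not pass (-0.39 ± 0.38, adjusted p = 0.475), and when only the low-mesenchyme cells stood for surface ectoderm its value was 0.28 (adjusted p = 0.794). The mesenchyme list was summed to a median of 7.20 UMIs per 10000 in surface ectoderm cells and 0 in neural plate cells, and restricting the comparison to low-mesenchyme cells lowered the genes called from 3532 to 1404. Tfap2a, Dlx3, Dlx5, Msx1 and Msx2 were still called with that restriction.

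**Figure D3:**
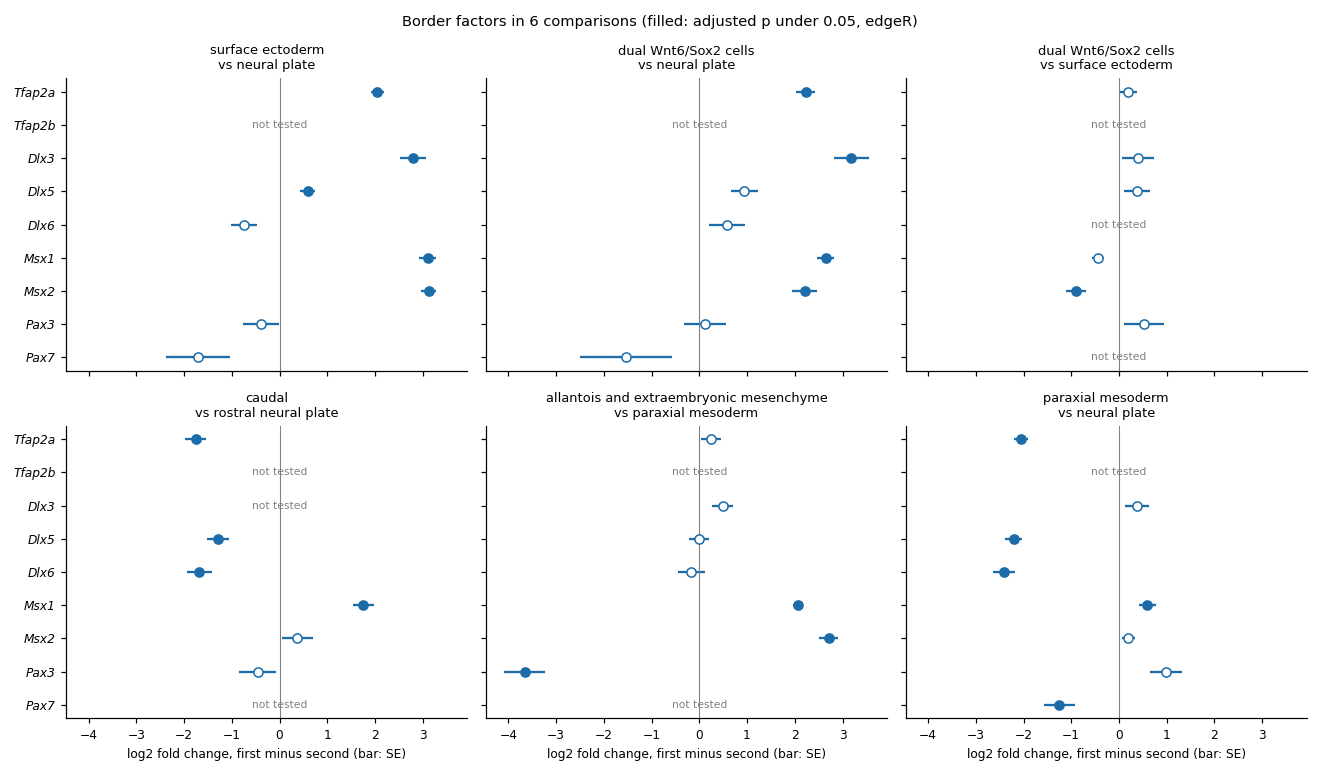
Log2 fold change (x axis, first class minus second, bar = standard error) of each factor in 6 comparisons of 3 against 3 summed embryos, with filled symbols for an adjusted p under 0.05 in edgeR. Msx1, Msx2, Dlx3 and Tfap2a were higher in surface ectoderm and dual cells than in neural plate, and Tfap2a, Dlx5 and Dlx6 were lower in caudal than in rostral neural plate.

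The lists of related genes, also chosen with earlier results of these data known, gave these counts in the same comparison. Its surface ectoderm sums include the high-mesenchyme cells, and the part of those cells in the list counts is not given here. Of 12 surface ectoderm and epidermal genes 10 were higher in surface ectoderm and none lower, including Wnt4 (log2 4.66 ± 0.18) and the epidermal regulator Trp63, at 1.54 and 0.0134 CPM, and the median of those tested was 2.94. Of 10 BMP-response genes 7 were higher, 3 did not pass and none was lower, with the largest values for the BMP target Id4 (3.13 ± 0.18) and the ligand gene Bmp4 (2.35 ± 0.21), which also belongs to the mesenchyme list, and the median was 1.53. Of 10 preplacodal genes 3 were higher, led by Gata3 (3.45 ± 0.16) and the cofactor gene Eya2 (1.96 ± 0.26), and the neural gene Sox3 was lower (-2.47 ± 0.21), with a median of 0.56.

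The neural crest list gave 3 of 10 higher, with Snai2 (2.92 ± 0.15) and Ets1 (1.43 ± 0.39) leading, while Sox9 was lower (-2.37 ± 0.15) and 4 did not pass, with a median of 0.29. Snai2, Ets1 and Gata3 were also called higher in the allantois and extraembryonic mesenchyme sums than in paraxial mesoderm. Foxd3 and Sox10, defining genes of specified crest, were not tested, and Foxd3 stood at a mean of 0 CPM in surface ectoderm and 0.390 CPM in neural plate. Among 10 other border-related factors 6 were lower in surface ectoderm, with Hes3 (-3.82 ± 0.33) and Zic2 (-3.31 ± 0.16) falling most, and Sp5, a WNT target, was higher (0.94 ± 0.24), with a median of -1.07. Among 10 other members of the AP-2, Dlx, Msx and Pax families 6 were not tested, Dlx2 (2.57 ± 0.51) and Tfap2c (1.81 ± 0.17) were higher, and Pax6 (-2.99 ± 0.70) and Pax2 (-2.43 ± 0.31) were lower, with a median of -0.31. Each list gene given here with a fold change passed edgeR's adjusted threshold with the same direction in 3 of 3 embryos. Over the low and high mesenchyme portions of surface ectoderm, Tfap2c was at 45.1 and 7.52 CPM, while Tfap2a was at 54.8 and 44.4 CPM.

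Dual cells, with both Wnt6 and Sox2, were then set against the class on each side. Against neural plate, 7.83% of 11534 genes were called (4.91% higher, 2.92% lower), and 4 of the 8 factors tested were higher, none was lower and 4 did not pass. Dlx3 was 3.19 ± 0.37 higher (edgeR adjusted p = 0.000114), Msx1 2.65 ± 0.18 (adjusted p = 1.46e-06), Tfap2a 2.23 ± 0.21 (adjusted p = 1.69e-05) and Msx2 2.21 ± 0.26 (adjusted p = 0.000143), each in 3 of 3 embryos. Dlx5, at 27.8, 47.0 and 15.6 CPM in dual cells, did not pass (0.95 ± 0.29, adjusted p = 0.0664) but passed with the replicate block (adjusted p = 0.000973). Dlx6 (0.58), Pax3 (0.12) and Pax7 (-1.53) did not pass. The median over the 8 was 1.58, against -0.02 over all genes.

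Against surface ectoderm, 2.4% of 9034 genes were called (0.432% higher, 1.97% lower), and 1 of 6 factors tested was among them, with a median of 0.29 over the 6. Msx2 was lower in dual cells, at 60.9, 36.9 and 26.0 CPM against 84.2, 86.4 and 62.3 CPM (-0.91 ± 0.21, edgeR adjusted p = 0.0226). This call was lost without embryo 2 (adjusted p = 0.365), without embryo 3 (0.161) and against low-mesenchyme surface ectoderm alone (log2 -0.32, adjusted p = 1.00, with 13 genes called in all). Msx1 was lower in 3 of 3 embryos without passing (-0.44 ± 0.13, adjusted p = 0.0699) and passed with the replicate block (adjusted p = 0.00294). Tfap2a (0.20 ± 0.19), Dlx3 (0.40 ± 0.33), Dlx5 (0.38 ± 0.27) and Pax3 (0.52 ± 0.42) did not pass, and Dlx6, Pax7 and Tfap2b were too low for the filter on low counts. In the alternatives that tested them none of these was called, the lowest adjusted p in edgeR being 0.0566 for Dlx6 (log2 1.29, no filter on low counts). Both comparisons use the same dual sums, and the first shares its neural plate sums with the comparison above.

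The median depth of dual cells was 17910 UMIs, against 19941 in surface ectoderm and 20628 in neural plate, and 2.61% of them were among the top doublet scores, against 4.42% and 3.72%. A mixture of 2 cells in 1 droplet was not tested beyond these scores. Of the listed genes, dual cells were higher than surface ectoderm for 4 of 10 border-related factors, including Zic2 (1.52 ± 0.32) and Zic5 (1.46 ± 0.29), and lower for 4 of 12 surface ectoderm genes, including Wnt4 (-0.95 ± 0.17) and Krt19 (-0.92 ± 0.22). They were also lower for 2 of 10 BMP-response genes, Bmp4 (-1.58 ± 0.25) and Smad7 (-0.88 ± 0.18), and for Snai2 of the crest list (-1.89 ± 0.30). The surface ectoderm sums here include the high-mesenchyme cells, and Bmp4 is on the list that splits them. Against low-mesenchyme surface ectoderm alone, 13 genes were called in all, 5 higher and 8 lower in dual cells. Which of the list genes named here were among them is not given.

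Along the axis of the neural plate the factors divided. Caudal cells (Hox and Cdx genes; 150, 181 and 141 cells) were compared with rostral cells (Otx2, Six3 and Hesx1; 319, 235 and 281 cells), and 6.43% of 10530 genes were called (3.5% higher, 2.92% lower). Of 6 factors tested, 1 was higher caudally, 3 were lower and 2 did not pass, with a median of -0.87 over the 6. Msx1 rose from 11.8, 18.0 and 14.3 CPM rostrally to 34.9, 52.3 and 61.0 CPM caudally (1.76 ± 0.21, edgeR adjusted p = 0.00011).

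Tfap2a fell from 20.6, 18.8 and 16.6 CPM to 6.11, 3.14 and 7.32 CPM (-1.76 ± 0.23, edgeR adjusted p = 0.000195), and Dlx6 from 9.27, 14.1 and 10.6 CPM to 3.93, 3.14 and 3.14 CPM (-1.68 ± 0.27, adjusted p = 0.00107). Dlx5 fell from 18.8, 29.9 and 19.0 CPM to 8.51, 8.01 and 11.2 CPM (-1.28 ± 0.23, adjusted p = 0.00252), but its call was lost when the gates were doubled (-0.69, adjusted p = 0.317). None of these 4 overlapped between groups. Msx2 (0.37 ± 0.33) and Pax3 (-0.46 ± 0.38) did not pass. Dlx3, too low for the filter, was at 3.93, 1.74 and 1.74 CPM caudally and 0.447, 0.816 and 0.648 CPM rostrally, on 28 and 10 UMIs. Without the filter on low counts it was called higher caudally (log2 2.08, edgeR adjusted p = 0.00693).

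Of 10 border-related factors 3 were higher caudally, 3 were lower, 3 did not pass and 1 was not tested. Gbx2 (3.68 ± 0.24) and Hes3 (3.61 ± 0.23) were among those higher, and Irx3 (-0.80 ± 0.13) and Zic5 (-0.62 ± 0.12) among those lower. In the other lists Sox3 (1.35 ± 0.17) and Tfap2c (1.30 ± 0.29) were higher caudally, and Pax2 (-2.73 ± 0.20), Sox9 (-1.58 ± 0.13), Eya1 (-1.69 ± 0.35), Gata3 (-1.56 ± 0.36) and Wfdc2 (-1.12 ± 0.15) were higher rostrally. Of 10 BMP-response genes 9 did not pass, and Id1 was lower caudally (-0.97 ± 0.22), the opposite direction to Msx1. The named genes passed edgeR's adjusted threshold in the same direction in 3 of 3 embryos.

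In the mesoderm classes the Msx genes and Pax3 separated. Allantois and extraembryonic mesenchyme together (459, 747 and 1080 cells) were compared with paraxial mesoderm (1115, 914 and 818 cells), where 38.1% of 13010 genes were called (19.1% higher, 18.9% lower). Of 7 factors tested 2 were higher, 1 was lower and 4 did not pass, with a median of 0.25. Msx2 was higher by 2.71 ± 0.20 (edgeR adjusted p = 3.87e-06) and Msx1 by 2.07 ± 0.10 (adjusted p = 2.52e-07), the latter from 52.1, 65.9 and 65.3 CPM in paraxial mesoderm. Pax3 was lower (log2 -3.66 ± 0.43, adjusted p = 9.29e-05), at a mean of 1.46 CPM against 18.6 CPM. Of the BMP-response list 8 of 10 were higher in the allantois and mesenchyme sums, including Bmp2 (2.92 ± 0.14), and none was lower. The mesenchyme gate used Bmp4.

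Paraxial mesoderm was last compared with neural plate, with 19.6% of 13073 genes called (10.2% higher, 9.41% lower). Of 8 factors tested 1 was higher in paraxial mesoderm, 4 were lower and 3 did not pass, with a median of -0.52. Dlx6 (-2.40 ± 0.23, edgeR adjusted p = 9.58e-05), Dlx5 (-2.21 ± 0.18, adjusted p = 4.02e-05) and Tfap2a (-2.05 ± 0.15, adjusted p = 2.39e-05) were lower in 3 of 3 embryos. Pax7 was lower (log2 -1.25 ± 0.33, adjusted p = 0.0253), at 0.694, 1.21 and 0.491 CPM against 1.61, 2.25 and 1.69 CPM, and lost its call without embryo 1 (adjusted p = 0.144) and without embryo 3 (0.150).

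Pax3 was higher in paraxial mesoderm in 3 of 3 embryos without passing (0.99 ± 0.34, adjusted p = 0.0701), and passed with the replicate block (adjusted p = 1.80e-06). Its groups overlapped, as the neural plate of embryo 2 (13.8 CPM) lay above the paraxial mesoderm of embryo 1 (13.2 CPM). Msx1 passed narrowly (0.59 ± 0.18, adjusted p = 0.0486), and its call was lost without embryo 2 (adjusted p = 0.130), without embryo 3 (0.184), with the gates doubled (0.475) and with another normalization (0.0510). The paraxial and neural plate sums of this comparison also served in the comparisons above.

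**Figure D4:**
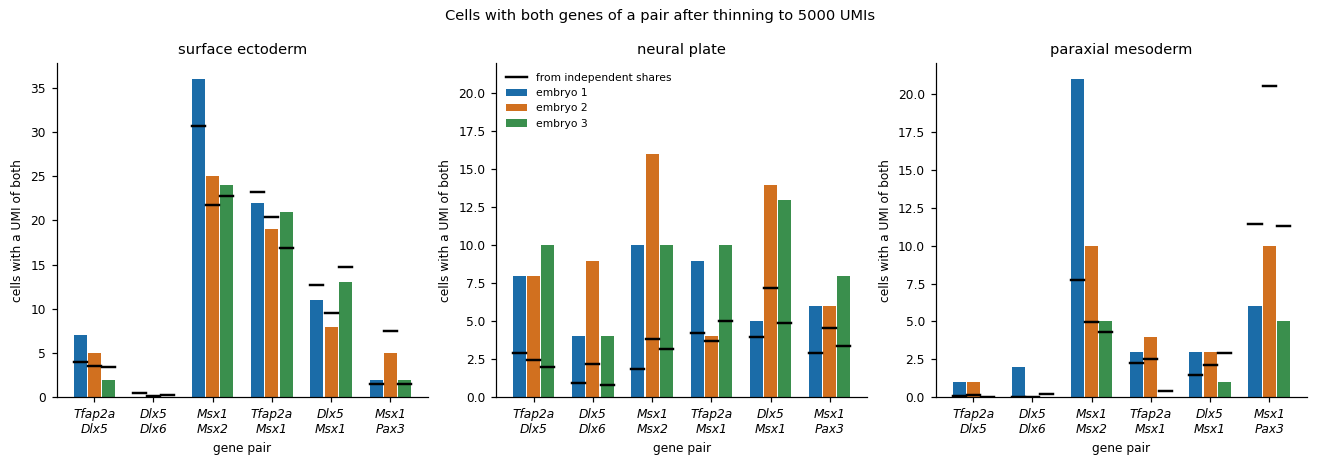
Number of cells (y axis) with a UMI of both genes of 6 pairs (x axis) in each embryo after thinning to 5000 UMIs, with a black line for the number given by the product of the single shares in that embryo. In paraxial mesoderm Msx1 and Pax3 were found together in 6, 10 and 5 cells, under the product in each embryo, and in neural plate Msx1 and Msx2 in 10, 16 and 10 cells, above it.

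Co-detection in single cells was counted in thinned cells and set beside the number expected from the product of the 2 shares within an embryo; it is a description over cells of the same libraries. In surface ectoderm the 3 pairs given here lay near the product without thinning. Most cells there held Msx1, so a pair with Msx1 could not lie far above the product. That limit does not apply to Tfap2a with Dlx5. Differences of the ratios between classes were not tested. Tfap2a and Msx1 occurred together in 22, 19 and 21 cells where 23.2, 20.3 and 16.9 were expected, and Msx1 and Msx2 in 36, 25 and 24 cells where 30.7, 21.7 and 22.8 were expected. Tfap2a and Dlx5 shared 7, 5 and 2 cells of 4.02, 3.56 and 3.38 expected. Unthinned, over all 385 cells, these 3 pairs stood at 1.06 times the product for Msx1 and Msx2 and for Tfap2a and Dlx5, and at 1.02 times for Tfap2a and Msx1. Other pairs lay further from it. Tfap2a and Dlx3 shared 51 unthinned cells against 38.6 expected, and Dlx5 and Dlx6 shared 14 against 10.1. Msx2 and Pax3 lay below the product, with 21 against 27.7.

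In the neural plate fewer cells held Msx1, so for pairs with Msx1 ratios further above the product were possible. Pairs of Msx1 with Msx2 and of Tfap2a with Dlx5 lay above it there. Msx1 and Msx2 occurred together in 36 of 2256 cells, 4.15 times the expected 8.67, and Tfap2a and Dlx5 in 26 cells, 3.50 times the expected 7.43, both above the product in 3 of 3 embryos. The neighbouring genes Dlx5 and Dlx6 were found together in 17 cells, 4.58 times the expected 3.71, again in 3 of 3 embryos. The neural plate class holds both rostral and caudal cells, and the part of that mixture in these ratios was not tested over the whole class. Within the rostral neural plate Dlx5 and Dlx6 still occurred together in 12 cells against 2.79 expected, and Tfap2a and Dlx5 in 16 against 5.50. In the caudal neural plate Dlx5 and Msx1 shared 14 cells against 3.98 expected. These ratios were lower without thinning. Over 2260 unthinned neural plate cells, Msx1 and Msx2 stood at 2.42, Tfap2a and Dlx5 at 2.66 and Dlx5 and Dlx6 at 3.17 times the product. Unthinned, Dlx5 and Dlx6 stood at 2.76 and Tfap2a and Dlx5 at 2.33 in the rostral neural plate, and Dlx5 and Msx1 at 1.97 in the caudal neural plate.

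In paraxial mesoderm Msx1 and Pax3 lay below the product in each embryo. They occurred together in 6, 10 and 5 cells where 11.4, 20.5 and 11.3 were expected, a ratio of 0.493 over 2844 cells, but over 2847 unthinned cells they shared 321 cells against 342 expected, a ratio of 0.938. Msx1 and Msx2 were together in 21, 10 and 5 cells where 7.71, 4.99 and 4.28 were expected, and at 1.998 times the product unthinned. The pairs above the product in neural plate were above it here too. Unthinned, Dlx5 and Dlx6 shared 38 paraxial cells against 4.25 expected, and Tfap2a and Dlx5 shared 51 against 8.16. In neural plate the same pair of Msx1 and Pax3 was found in 6, 6 and 8 cells of 2.89, 4.59 and 3.40 expected (1.72 times the product unthinned). Dlx5 with Msx1 was below the product in surface ectoderm in each embryo (11, 8 and 13 cells of 12.7, 9.49 and 14.7), but unthinned it lay at the product, with 118 cells against 117 expected.

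The genes with the pattern most like each factor over the 18 class means were ranked by Pearson correlation of log2(CPM + 1) among 11870 genes, as a description in which all points share 3 libraries. For Dlx3 these were Grhl3 (0.89), Tchh (0.88) and Klk10 (0.84). Tfap2a was close to Tunar (0.88) and Gap43 (0.87). Dlx5 had Urah (0.92), Platr10 (0.91) and Tunar (0.89), and Dlx6 had Platr10 (0.94), Fbxo2 (0.90) and Rtn4rl1 (0.89). For Msx1 the closest were Rab18 (0.92), Dvl3 (0.91) and Kazn (0.89), and for Msx2 they were Nudcd3 (0.90), Lamb1 (0.90) and Cdh3 (0.90). Pax3 had Klhl29 (0.90), St8sia3 (0.88) and Astn1 (0.87), and Pax7 had Bcl11a (0.92), Gdap1l1 (0.92) and AL732506.1 (0.92). The order for Tfap2b, led by Wnt9b (0.95), Rprml (0.92) and Klhdc8a (0.90), rests on 40 UMIs.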

How the data were processed

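Each of 3 embryos gave 1 droplet library (3' v3 chemistry). Per the labels, the authors ran Cell Ranger 3.1.0 on mm10 (an EGFP feature is in the files) and deposited raw UMI counts per feature for 23533 barcodes called as cells, without normalization. Barcodes under 1500 genes, over 8500 genes (7500 for embryo 2) or over 10% mitochondrial UMIs were removed, which left 22168. First-round clusters (scanpy 1.11.5, 2000 variable genes, 30 components, 20 neighbours, resolution 0.8) that were mainly doublets by Scrublet (6% expected) or low in mitochondrial UMIs were removed (988 cells). The remaining cells held 488362125 UMIs.

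Cells were classed by marker UMIs per 10000, in the order erythroid, extraembryonic endoderm, germ cells, organizer and axial mesoderm, endoderm, endothelium, cardiac, then dual, surface ectoderm, neuromesodermal, neural plate and mesoderm; 5233 cells stayed unassigned. Gate values were set after the cells were seen. The members and gene lists were chosen with earlier results of these data known. Doublets were otherwise kept, and removing the top 6% of scores was an alternative.

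UMIs were summed per embryo and class (at least 10 cells) and tested with edgeR 4.0.16 (R 4.3.3; TMM, filterByExpr, glmQLFit, glmQLFTest, Benjamini-Hochberg). Standard errors come from the F statistic, and CPM is the gene's UMIs per 1000000 of the sum. Sums held 786752 to 37460607 UMIs. The replicate number is the embryo itself, so sums pair by animal. The main fit left out this pairing, and deviations of paired sums correlated at 0.206 to 0.633 across genes. On simulated counts with 200 changed genes, 84.5% of tested 1-unit and 99.0% of 2-unit log2 changes were recovered for surface ectoderm against neural plate, with 2.70% of calls false. The lowest recovery was 69.4% of 1-unit changes for dual cells against surface ectoderm and 92.7% of 2-unit changes for dual cells against neural plate, and the highest false share was 7.96% along the neural plate. The simulation gave every gene the same dispersion and drew each sum independently, unlike the correlated real sums. Its rates therefore need not hold for the tests of the real counts. All members are named, and of each list up to 2 genes each way with the largest change called in 3 of 3 embryos; some are not reported here. Alternatives were DESeq2 1.42.0, RLE scaling, no filter, the replicate block, leaving out each embryo, doubled gates, no cluster removal, no gene maximum and no thinning. Low-mesenchyme surface ectoderm and the rostral Epcam class were added after the data had been seen.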

Additional observations from a re-analysis of the deposited data

How the results depend on the processing

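Of the alternative values for members called in a comparison, 231 kept their direction and call, 12 lost the call and none changed sign. Those that lost it were Dlx5 and Msx2 in the surface ectoderm comparisons, Dlx5 along the neural plate, and Msx1 and Pax7 in paraxial mesoderm, as given above. Of the values for members not called, 200 stayed so, 18 passed and 10 changed sign. The sign changes were Pax3 with low-mesenchyme surface ectoderm (0.28 against neural plate, and -0.16 for dual cells), and Msx2 in paraxial mesoderm with doubled gates (-0.054). Leaving out an embryo gave -0.063 (without embryo 3) to 0.30 for Pax3 in dual cells against neural plate, and -0.041 (without embryo 2) to 0.67 for Dlx5 in dual cells against surface ectoderm. In allantois and mesenchyme against paraxial mesoderm, leaving out an embryo gave -0.039 (without embryo 1) to 0.45 for Tfap2a, -0.10 to 0.079 for Dlx5 (0.0049 without embryo 2, 0.079 without embryo 3) and -0.33 to 0.047 (without embryo 3) for Dlx6, and Dlx5 was 0.026 without the gene maximum. The cause was not tested.

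Counts of genes called moved with the number of embryos. Leaving out an embryo gave 2292 to 2683 genes for surface ectoderm against neural plate (3532 with all), 360 to 573 for dual cells against neural plate (903), 58 to 147 for dual cells against surface ectoderm (217), 437 to 442 along the neural plate (677), 3136 to 3951 for allantois and mesenchyme (4951) and 1340 to 1625 for paraxial mesoderm against neural plate (2557). With the embryo as a replicate block the counts were 1491 for dual cells against neural plate, 718 for dual cells against surface ectoderm, 1493 along the neural plate and 5496 for paraxial mesoderm against neural plate, and the other comparisons stayed within 1.5 times. The block changed no member's call beyond those given above. Low-mesenchyme surface ectoderm, added after the data had been seen, gave 1404 genes against neural plate and 13 against dual cells. Dual cells against surface ectoderm had 123 genes in DESeq2 and 396 with no filter on low counts. Doubled gates were not run for dual cells, since fewer than 10 remained in an embryo.

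Doubled gates moved 10 levels by more than the SD between embryos (Msx1 in paraxial mesoderm to 34.4 CPM). The 161 alternative levels that stayed within it include those that left out an embryo. Such a mean cannot move by more than the SD, so that number does not measure stability. Tfap2b, Pax7 and the rostral Epcam class rest on few UMIs or cells.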
